A study of Mus musculus with 35 samples.

Results

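Transposable element RNA was compared between the hippocampi of non-transgenic mice aged 9 months and 3 months. The libraries were taken by their titles, 6 non-transgenic libraries at each age, 12 of the 35 in the series. The animals are the controls of the rTg4510 tauopathy line, share its mixed 129S6 and FVB background and are titled as carrying no transgene, and the labels name no other treatment. Ribosomal RNA was removed from total RNA before stranded paired sequencing of 76 bases, per the series description. Titles of the 3-month libraries are numbered Sample_167, Sample_172, Sample_173, Sample_176, Sample_177 and Sample_180, and those of the 9-month libraries Sample_202, Sample_204, Sample_206, Sample_207, Sample_213 and Sample_214. The numbers were read as animals, although no label says so, and if they are not then the p-values measure a spread that may be technical.

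Several labels limit what the comparison can show. The genotype entry in the characteristics reads rTg4510 for 7 of the 12 libraries, 3 at 3 months and 4 at 9 months, and the title was followed. The source name gives the hippocampus, whereas the tissue entry names a lysate of the total brain. The table used here holds repeats and no genes, so neither tissue nor genotype could be checked against marker genes. The sequencing lane in the column names is spread unevenly over age. At 3 months 1 library was in lane 1 and 5 were in lane 6, and at 9 months 4 were in lane 1 and 2 in lane 8. Lane 4 holds none of the 12 libraries, so lanes 1 and 4 of the wider series are represented here by lane 1, and lanes 5 to 8 by lanes 6 and 8. Lane 1 is the only lane with both ages, and within lanes 5 to 8 age and lane cannot be told apart.

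Transposable elements are repeated sequences that copied themselves through the genome, and most of their copies are old and can no longer move. LINEs such as L1 encode the proteins for their own copying through RNA, SINEs are short elements that borrow those proteins, and LTR elements descend from retroviruses. DNA transposons moved without an RNA step and are fossils in the mouse genome. In total RNA from brain, reads from these sequences can come from the elements' own transcripts or from copies inside the introns and untranslated regions of genes, which a sum over a subfamily does not separate. In bulk tissue, fewer cells of a type and less RNA per cell cannot be told apart either.

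Each row of the table is an element subfamily with its family and class, and each value is a read count divided by 1 factor per library, called here a normalized count on the deposited scale. Of 1153 rows, 880 reached a normalized count of 10 in at least 5 of the 12 libraries and were tested. The 273 rows set aside held 0.100% of the reads. The 12 libraries hold 555695 to 893854 reads assigned to elements. The dividing factors were 0.77 to 1.30 at 3 months and 0.63 to 1.06 at 9 months, with means of 1.09 and 0.79. A second scale, called TMM, sets the libraries to a common level over the elements themselves and so removes any change that all elements share.

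On the deposited scale, RNA of most elements was higher at 9 months. The log2 fold change was positive for 850 of the 880 elements (96.6%), and the median was 0.33, which is 1.26-fold. At an adjusted p under 0.05, limma called 245 elements higher (27.8%) and 1 lower (0.114%). Unadjusted p-values lay under 0.05 for 464 higher elements (52.7%) and 3 lower ones (0.341%). Adjusted p-values of the called elements lay between 0.0369 and 0.0495, all just under the threshold. With lane set, lane 1 against lanes 6 and 8, as a second term in the limma fit, 0 elements were called, 233 had an unadjusted p under 0.05, the smallest adjusted p was 0.166 and the median log2 fold change was 0.29. The median SE was 0.16 without that term and 0.19 with it. After TMM rescaling the median was 0.01, and limma called 0 elements, while 76 had p-values under 0.05 before adjustment.

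The level of a typical element, the median over elements of the log2 ratio to the mean of the 12 libraries, gives this shared shift for each library. At 3 months it was 0.06 in Sample_167, -0.15 in Sample_172, 0.08 in Sample_173, -0.34 in Sample_176, -0.23 in Sample_177 and -0.38 in Sample_180. At 9 months it was 0.15 in Sample_202, 0.21 in Sample_204, -0.02 in Sample_206, -0.05 in Sample_207, 0.46 in Sample_213 and 0.24 in Sample_214. The ages overlapped, because Sample_206 and Sample_207 lay below the 2 highest 3-month libraries. The mean was -0.16 ± 0.20 at 3 months and 0.17 ± 0.19 at 9 months (SD, n = 6 each), a difference of 0.33 with an exact two-sided permutation p of 0.0195 over 924 splits. Within lanes 5 to 8 the difference was 0.39 (2 against 5 libraries, exact permutation p = 0.0952, the smallest these numbers allow). Within lane 1 it was 0.10, between 4 libraries and 1, for which no test was run. Among the 5 libraries whose title and characteristics give the same genotype it was 0.42 (exact permutation p = 0.2, again the smallest possible). These are Sample_176, Sample_177 and Sample_180 in lane 6 against Sample_204 in lane 8 and Sample_206 in lane 1, so the ages share no lane. The 3-month libraries among them have the lowest levels of that age. The 6-month non-transgenic libraries, in lanes 6 to 8, had a mean of -0.10 ± 0.19 (SD, n = 6) and ranged from -0.47 to 0.07.

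**Figure D1:**
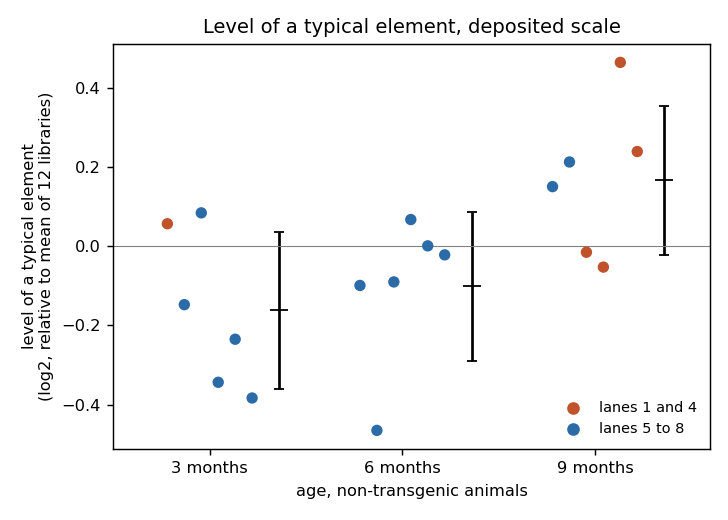
Level of a typical element in each of the 18 non-transgenic libraries (log2, relative to the mean of the 3- and 9-month libraries) by age in months, coloured by sequencing lane set, with the mean and SD of each age beside the points. The 9-month mean of 0.17 lies above the 3-month mean of -0.16, the 2 ages overlap, and the single 3-month library of lane 1 stands at 0.06.

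The number of calls depended on single libraries. Leaving out Sample_172, Sample_176, Sample_177, Sample_204, Sample_213 or Sample_214 left 0 calls by limma, with 318 to 401 elements at an unadjusted p under 0.05, leaving out Sample_180 left 2 and leaving out Sample_202 left 5. Leaving out Sample_206, Sample_167, Sample_173 or Sample_207 instead gave 371, 392, 420 and 456 calls. The median log2 fold change stayed between 0.28 and 0.38 in all 12 of these fits. Of the 245 higher elements, 234 were also higher at 9 months within lane 1 and all 245 within lanes 5 to 8. Over all 880 elements 622 and 855 were higher there. The 245 were chosen in the same libraries, so their agreement was favoured in advance. A limma fit of the 7 libraries in lanes 5 to 8 called 150 elements, each of them higher. Of these, 90 were among the 246 called over all 12 libraries, and age and lane cannot be told apart in that fit. A fit of the 5 libraries in lane 1 called 0, and 5 elements there had an unadjusted p under 0.05. Only 1 of those libraries is of 3 months and is assumed to vary like the others, so this count says little about the change.

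**Figure D2:**
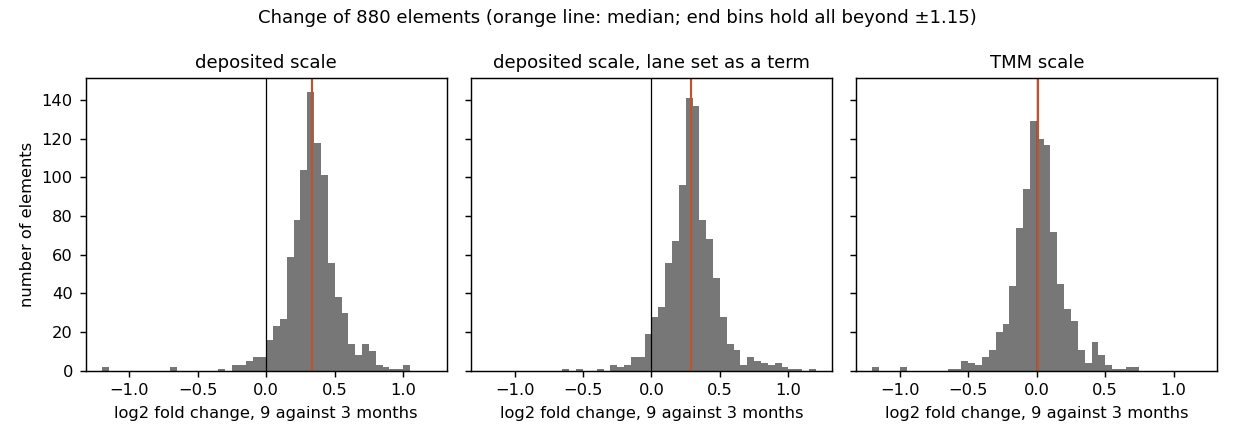
Number of elements by log2 fold change at 9 against 3 months for the 880 tested elements on the deposited scale (left), on the deposited scale with lane set as a term (middle) and on the TMM scale (right). The orange line marks the median, 0.33, 0.29 and 0.01, and the whole distribution moves with it.

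Among LTR elements, 152 of 524 were called higher and 1 lower on the deposited scale, a share near the 27.8% of all elements, with a median log2 fold change of 0.36. LTR37B, an LTR of the ERV1 family, had the smallest p. Its normalized counts ran from 29.3 over a median of 32.0 to 42.2 at 3 months, and from 42.5 over 60.6 to 76.5 at 9 months. The ages did not overlap, although the highest 3-month and the lowest 9-month library differed by less than 1 count. The log2 fold change was 0.87 (SE 0.19, limma adjusted p = 0.0369), or 0.94 with lane set as a term (adjusted p = 0.166) and 0.54 on the TMM scale (adjusted p = 0.275). Groups did not overlap for 25 elements, all higher at 9 months (2.84%).

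MER77B, an old LTR of the ERVL family, ranged from 38.8 over a median of 81.0 to 87.0 normalized counts at 3 months and from 91.4 over 120.1 to 179.4 at 9 months. Every 9-month library lay above every 3-month library. The difference was 0.77 on the log2 scale (SE 0.20, limma adjusted p = 0.0369), 0.45 within lane 1 and 0.84 within lanes 5 to 8. The TMM value was 0.44, with an adjusted p of 0.339. MER74B of the same family gave 0.67 on the deposited scale (adjusted p = 0.0394), 0.87 within lanes 5 to 8 and -0.04 within lane 1, so its direction differed between the lane sets. LTR79, also ERVL, gave 0.64 and was above 0 in both lane sets, at 0.44 and 0.55.

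MERVL-int is the internal, protein-coding part of MERVL, an endogenous retrovirus known for its transcription in the early cleavage embryo. Its normalized count was 515 to 662 at 3 months with a median of 588, and 705 to 897 at 9 months with a median of 767. No 9-month library overlapped the 3-month range. The means were 598 ± 55.1 and 781 ± 65.6 (SD, n = 6 each), a 1.31-fold difference with a limma adjusted p of 0.0369, and the log2 difference was 0.05 on the TMM scale (adjusted p = 0.867). MT2A, an LTR of the same family, rose 1.33-fold on the deposited scale (adjusted p = 0.0369) and stood at 0.08 (log2) on the TMM scale. Over the 85 ERVL members 25 (29.4%) were called higher on the deposited scale, near the 27.8% of all elements, with a median of 0.37.

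In ERVK, the group that includes the youngest mouse retroviruses, 62 of 245 members were called higher (background 27.8%), and the median log2 difference was 0.36 as deposited and 0.03 on the TMM scale. IAPLTR1a_Mm and IAPLTR2a are LTRs of intracisternal A particles, retrovirus-like elements with copies that still move in mice. IAPLTR1a_Mm went from a range of 63.6 to 78.2 at 3 months to 82.4 to 145 at 9 months, a log2 fold change of 0.57 (limma adjusted p = 0.0369) with no overlap. IAPLTR2a went from 37.2 to 72.6 to 59.2 to 92.4, with overlapping ages and a log2 fold change of 0.62 (adjusted p = 0.0369). Its 2 lane sets differed, with 0.05 within lane 1 and 0.82 within lanes 5 to 8. IAPEz-int, the internal part of an IAP subfamily, had means of 1464 ± 201 and 1785 ± 362 normalized counts (SD, n = 6 each) and a log2 fold change of 0.27 that did not pass (adjusted p = 0.0843).

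RLTR45-int, an ERVK internal part, had the largest log2 fold change among called elements with a mean of at least 50, at 0.84 (SE 0.25, limma adjusted p = 0.0369). At 3 months its normalized count was 37.1 to 74.4 and at 9 months 56.6 to 247, and a single library set the upper end. Sample_207 had 247, while the next 9-month library had 95.2, and without Sample_207 the log2 fold change was 0.56 (adjusted p = 0.0256). A 6-month library, Sample_183, had a similar count of 225. RMER20C_Mm and RLTR12A of the same family had log2 fold changes of 0.59 and 0.60 (adjusted p = 0.0369 for both), RLTR11D and RLTR45 0.64 and 0.61 (adjusted p = 0.0420 and 0.0369), and RLTR26_Mus 0.58 (adjusted p = 0.0369).

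ERVL-MaLR members are LTR elements without genes of their own. On the deposited scale 41 of 91 members (45.1%) were called higher, against 27.8% of all elements, and 1, ORR1A4, lower. The median was 0.37, close to that of all elements. MLT1L gave a log2 fold change of 0.65 and ORR1G 0.50 (limma adjusted p = 0.0369 for both). ORR1G ran from 454 to 713 normalized counts at 3 months and from 689 to 994 at 9 months, with the highest 3-month libraries, Sample_167 and Sample_173, above the lowest 9-month library. MTE-int, an internal part, gave 0.42 (adjusted p = 0.0369). In ERV1 23 of 90 members (25.6%) were called higher, among them RMER21B, which ran from 90.3 to 146 at 3 months and from 150.1 to 197.9 at 9 months, a log2 fold change of 0.55 (adjusted p = 0.0369) without overlap. The 104 internal parts had 20 members called higher (19.2%) with a median of 0.33. The 420 other LTR rows had 132 higher (31.4%) and 1 lower with a median of 0.37.

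**Figure D3:**
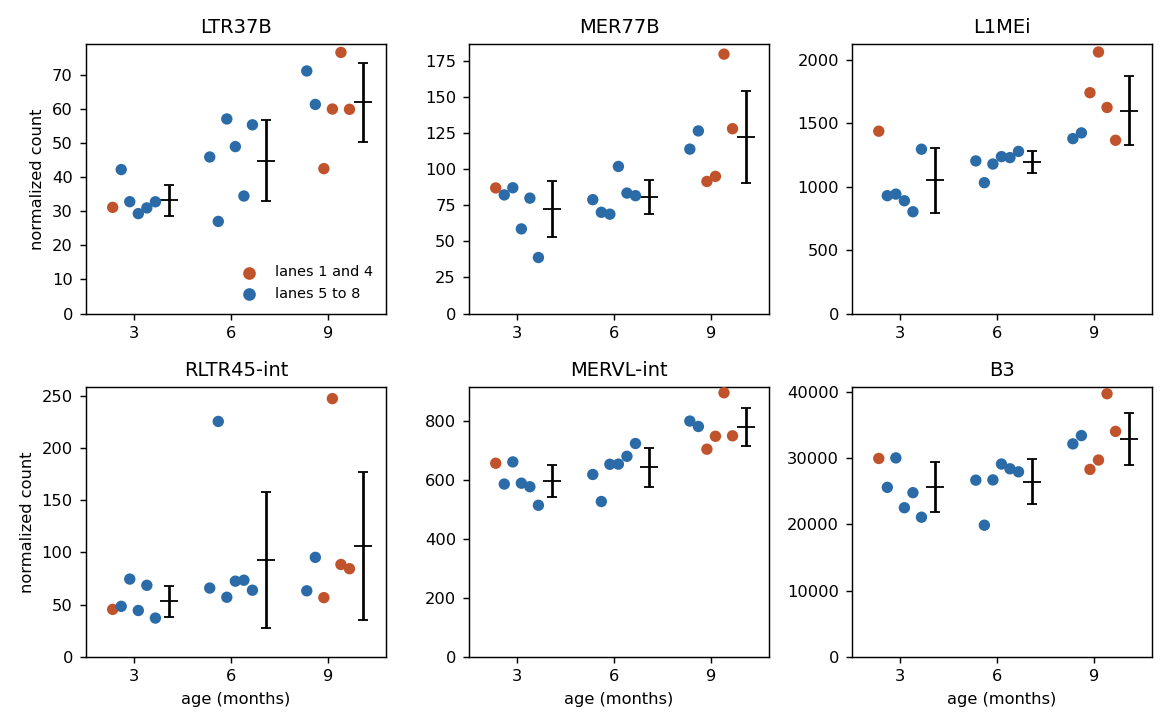
Normalized counts of 6 elements (LTR37B, MER77B, L1MEi, RLTR45-int, MERVL-int and B3) in each non-transgenic library at 3, 6 and 9 months, coloured by lane set, with mean and SD of each age beside the points and axes starting at 0. The 9-month libraries of LTR37B, MER77B and MERVL-int lie above all 3-month libraries, and 1 library at 6 months and 1 at 9 months hold the high RLTR45-int counts.

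Of the 4 main classes SINEs had the largest share of called members, 25 of 35, against 27.8% of all elements. In the Alu family, which in the mouse is made of B1 and its relatives and derives from the 7SL RNA of the signal recognition particle, 15 of 16 members were called higher, and FAM, at 0.09, was not (limma adjusted p = 0.624). The Alu median of 0.33 equalled that of all elements, and the error was smaller, with an SE of 0.11 for B1_Mur2 against a median SE of 0.16 over the 880 elements. B1_Mur2 had 6691 to 9029 normalized counts at 3 months and 9158 to 10970.1 at 9 months. Its groups did not overlap, and the log2 fold change was 0.38 (adjusted p = 0.0369) on the deposited scale and 0.04 on the TMM scale (adjusted p = 0.867). After TMM rescaling the 16 Alu members had a median of 0.00081, with 9 above and 7 below 0.

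All 4 members of the B4 family were called higher, against 27.8% of all elements and with a median of 0.34 close to their 0.33, B4A at 0.41 (limma adjusted p = 0.0380) and ID_B1 at 0.33 (adjusted p = 0.0428). In the B2 family, SINEs derived from a transfer RNA, 2 of 5 were called, B3 at 0.36 (adjusted p = 0.0394) and B3A at 0.35 (adjusted p = 0.0435). The younger members B2_Mm2 at 0.32, B2_Mm1t at 0.28 and B2_Mm1a at 0.24 did not pass (adjusted p = 0.0510, 0.0889 and 0.134). B3 had 21062 to 30014 normalized counts at 3 months and 28279 to 39699 at 9 months, and the ages overlapped. Its log2 difference was 0.03 after TMM rescaling (SE 0.03, adjusted p = 0.867). MIRb, a SINE shared by mammals, gave 0.31 on the deposited scale (adjusted p = 0.0435), 0.05 within lane 1 and 0.29 within lanes 5 to 8.

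The ratio of B3 to its relative B3A does not depend on the scaling of a library. Its log2 value was 1.26 ± 0.022 at 3 months and 1.27 ± 0.097 at 9 months (SD, n = 6 each, exact permutation p = 0.926, adjusted over 12 measures 0.993). Sample_207 stood apart at 1.46, and the other 9-month libraries lay between 1.188 and 1.27. Without Sample_207 the difference between ages was -0.026.

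Among LINEs, 33 of 141 elements were called higher on the deposited scale, and in the L1 family 29 of 122, both a little under the 27.8% of all elements. L1MEi, an old mammalian L1, had 802 to 1436 normalized counts at 3 months, where the single lane 1 library was the highest, and 1365 to 2060 at 9 months. Its log2 fold change was 0.62 (SE 0.14, limma adjusted p = 0.0369), and 0.43 with lane set as a term (adjusted p = 0.179). L1VL1 had 165 to 227 at 3 months and 245 to 325 at 9 months, a log2 fold change of 0.48 without overlap (adjusted p = 0.0369). L1ME3G, another old L1, had means of 412 ± 97.2 and 501 ± 187 (SD, n = 6 each) and did not pass (0.19, adjusted p = 0.447). Its 9-month libraries ran from 172.4 in Sample_207 to 752 in Sample_213.

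DNA transposons had 26 of 147 elements called higher (17.7%), fewer than the 27.8% of all elements, with a median of 0.30. MER63A of the hAT-Blackjack family went from a range of 37.1 to 49.3 at 3 months to 52.1 to 92.5 at 9 months, a log2 fold change of 0.69 (limma adjusted p = 0.0369) with no overlap. In hAT-Charlie 17 of 61 were higher, with Charlie1 at 0.41 (adjusted p = 0.0369). Charlie19a had a log2 fold change of 1.00 (adjusted p = 0.0369) at counts of only 9.49 to 26.9 at 3 months and 21.9 to 38.7 at 9 months. In TcMar-Tigger 5 of 37 were higher, among them Tigger7 at 0.36 and Tigger5 at 0.45 (adjusted p = 0.0369 and 0.0381). Tigger7 had 1101 to 1439 normalized counts at 3 months and 1526 to 1707 at 9 months, with no overlap.

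Lists made by name ran across the families. Of 49 young mouse elements, such as IAP, ETn, MERVL, L1Md and young B1 and B2 members, 12 (24.5%) were called higher on the deposited scale, near the 27.8% of all elements, with a median of 0.33. Of 327 ancient mammalian elements, such as MIR, L2, MER, MLT and Charlie members, 69 (21.1%) were called higher, with a median of 0.31. Limma called 0 in both lists on TMM-scaled values, where the medians were 0.00095 and -0.02. Before adjustment 3 of 49 and 33 of 327 had p-values under 0.05 on that scale, against 76 of all 880 elements. Of 4 satellites 2 were called higher and of 7 elements with names or families of the Y chromosome 2. The structural RNA 7SK, which restrains transcription elongation, was the only tested row of its kind and did not pass (0.22, adjusted p = 0.300).

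**Figure D4:**
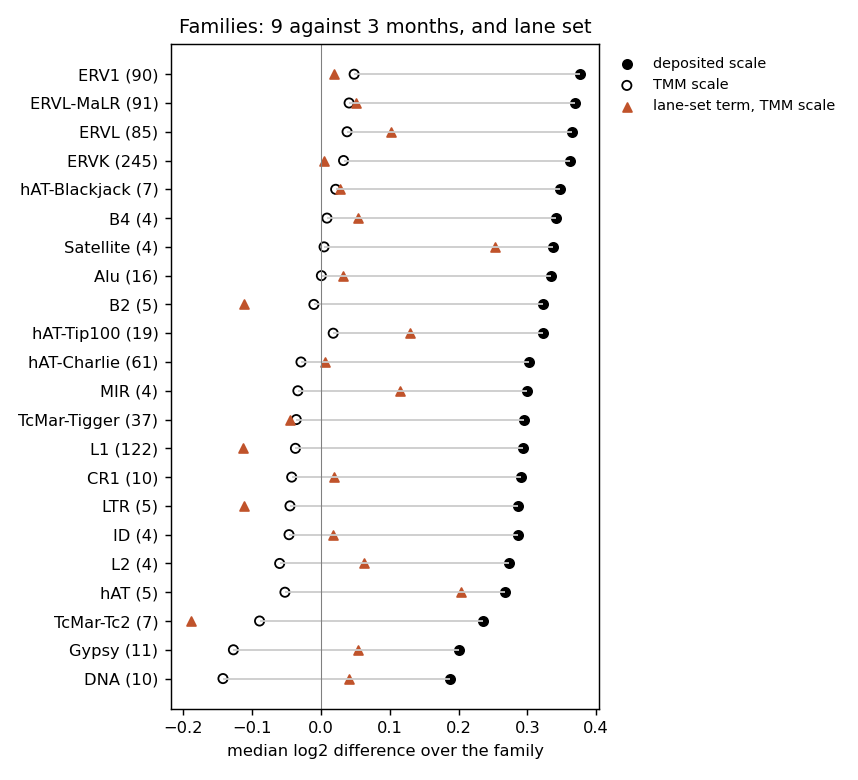
Median log2 difference of each family of at least 4 tested elements (number of members in brackets): 9 against 3 months on the deposited scale (filled circles), the same on the TMM scale (open circles), and lane 1 against lanes 6 and 8 at equal age on the TMM scale (triangles). All deposited medians lie to the right of 0, and the TMM medians lie between -0.14 and 0.05. The lowest lane medians are -0.19 for TcMar-Tc2 and -0.11 for each of L1, B2 and LTR.

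Elements that were lower at 9 months on the deposited scale were few. Besides ORR1A4 none passed, and the next by p were L1Md_T at -1.38, MMSAT4 at -0.20, MADE2 at -0.18, LTR82A at -0.19 and UCON2 at -0.20 (limma adjusted p = 0.0830, 0.281, 0.319, 0.322 and 0.375). MMSAT4, a satellite repeat, had 108 to 123 normalized counts at 3 months and 62.4 to 141 at 9 months, with Sample_207 at the low end. All of these except ORR1A4 were above 0 within lanes 5 to 8.

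On the TMM scale 29 elements were higher and 47 lower at an unadjusted p under 0.05 (3.3% and 5.34%), and limma called none at an adjusted p under 0.05. EdgeR on the recovered reads also called 0, with 74 at an unadjusted p under 0.05. DESeq2, which used its own factor per library in place of TMM, called 1. That element was MLT1-int, the internal part of an old MaLR element. Its TMM-scaled counts were 226 to 326 at 3 months and 188.7 to 225 at 9 months, and the ages did not overlap. The log2 fold change was -0.42 (SE 0.084, limma adjusted p = 0.110), and -0.48 without Sample_177, where it passed (limma adjusted p = 0.0235). On the deposited scale MLT1-int was at -0.09 (adjusted p = 0.556). Groups did not overlap for 4 elements on the TMM scale, all lower (0.455%), namely MLT1-int, Charlie4z, L1MC3 and MER34A.

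Other elements low on the TMM scale were LTR86A2 at -0.46, MMSAT4 at -0.53, MMETn-int at -0.31, MamGypLTR1c at -0.30 and MER44A at -0.32 (limma adjusted p = 0.275 for each). MMETn-int is the internal part of an early transposon, a young ERVK element whose insertions are known as mutations in laboratory mice. Its deposited means were 229 ± 35.6 and 234 ± 48.4 normalized counts (SD, n = 6 each). Among elements with a mean of at least 50, those higher with the smallest p on the same scale were RMER20C_Mm at 0.26, MER77B at 0.44, MER63A at 0.37, IAPLTR2a at 0.29, ORR1G at 0.17 and RLTR26_Mus at 0.25, with adjusted p from 0.339 to 0.510. Of the 880 elements, 860 had a TMM log2 fold change between -0.5 and 0.5, and the median SE was 0.12.

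Shares of the counts do not depend on the scaling of a library, and no difference between ages passed after adjustment. SINEs held 42.8% ± 2.31 at 3 months and 45.6% ± 2.37 at 9 months (SD, n = 6 each, exact permutation p = 0.0779), LINEs 20.9% and 20.3% (exact permutation p = 0.610), LTR elements 28.6% and 26.2% (exact permutation p = 0.0433) and DNA transposons 5.92% and 6.09% (exact permutation p = 0.409). Adjusted over 12 measures, the p of the LTR share became 0.260. Leaving aside ORR1A4 and L1Md_T, SINEs held 47.0% and 47.2%, LINEs 20.0% and 19.6%, LTR elements 24.7% and 25.02% and DNA transposons 6.50% and 6.31%. The exact permutation p of these 4 differences lay between 0.145 and 0.435.

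Lane set was then tested at equal age, with age as the other term. ORR1A4, an LTR of the MaLR group, followed the lane. Its normalized counts were 1406 to 1961 in the 5 libraries of lane 1 and 40298 to 62671 in the 7 libraries of lanes 6 and 8, with no value between. The difference was -4.87 on the log2 TMM scale, 29.3-fold lower in lane 1 (SE 0.13, limma adjusted p = 2.66e-13), and it was -5.03 within the 3-month and -4.77 within the 9-month libraries. Within lane 1 the 3-month library had 1789 and the 9-month libraries 1406 to 1961. On the deposited scale its log2 difference between ages was -0.04 within lane 1 and -0.02 within lanes 5 to 8, against -2.42 over all 12 libraries (adjusted p = 0.0394). On the TMM scale these differences were -0.15, -0.41 and -2.75 (adjusted p over all 12 libraries 0.480), and the age term beside lane set was -0.32 (adjusted p = 0.836). The mean share of ORR1A4 was 6.11% ± 3.09 at 3 months and 2.02% ± 2.81 at 9 months (SD, n = 6 each, exact permutation p = 0.0303, adjusted 0.260).

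L1Md_T, a young L1 of the mouse, and L1MEd, an old mammalian L1, followed the lane too. L1Md_T had 1455 to 2758 normalized counts in lane 1 and 6012 to 54967 in lanes 6 and 8, a log2 difference of -3.33 on the TMM scale, 10.1-fold lower in lane 1 (limma adjusted p = 0.00717). Within lanes 6 and 8 it varied widely among libraries, from 6012 in Sample_180 to 40302 in Sample_177, 44031 in Sample_173 and 54967 in Sample_202. L1MEd had TMM-scaled counts of 498 to 663 in lane 1 and 956 to 1363 in lanes 6 and 8, a log2 difference of -0.95 (adjusted p = 0.000418). Between ages L1MEd was at -0.09 on the deposited scale and at -0.42 on the TMM scale over all 12 libraries (adjusted p = 0.712 and 0.620). With lane set as a term the same differences were 0.34 and 0.05 (adjusted p = 0.187 and 0.988).

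On the TMM scale 6 elements in all were called lower in lane 1 (0.682%) and 0 higher, while 63 lower (7.16%) and 38 higher (4.32%) had p-values under 0.05 before adjustment. The remaining 3 were L1MC5 at -0.33, L1_Mur2 at -0.34 and L1M5 at -0.28 (limma adjusted p = 0.0169, 0.0209 and 0.0233). L1MC5 had TMM-scaled counts of 599.8 to 715 in lane 1 and 761 to 813 in lanes 6 and 8, L1M5 had 2031 to 2454 and 2663 to 2882, and the lanes overlapped for L1_Mur2. On the deposited scale ORR1A4, L1Md_T and L1MEd were called, at -4.78, -3.25 and -0.86, and none was called higher, with 40 higher at an unadjusted p under 0.05 (4.55%). Calls on the TMM scale fell to 2 without Sample_167 or Sample_202 and reached 12 without Sample_180.

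In the L1 family 93 of 122 members had a negative lane term on the TMM scale, with a median of -0.11 against 0.01 over all 880 elements, 409 of which were negative. An unadjusted p under 0.05 was found for 32 L1 members and for 101 elements in all. On TMM-scaled values lane 1 did not overlap lanes 6 and 8 for 16 elements that were lower in lane 1 (1.82%) and for 5 that were higher (0.568%). On the deposited scale the same count was 3 lower (0.341%) and 26 higher (2.95%). Of the 16, 10 are L1 members, and all 5 higher ones, MLT1H, ORR1E, MTA_Mm, ORR1F and MTD, belong to ERVL-MaLR. ORR1E and ORR1F share their name group with ORR1A4, which went the other way. Alu members, in contrast, had a lane median of 0.03, and 0 of 16 had an unadjusted p under 0.05. Low lane medians on the TMM scale were not confined to L1. The median was -0.11 in B2, where 4 of 5 members were negative and 3 had an unadjusted p under 0.05. It was -0.11 in the family named LTR (4 of 5 negative) and -0.19 in TcMar-Tc2 (5 of 7 negative). Medians of all other families were higher.

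**Figure D5:**
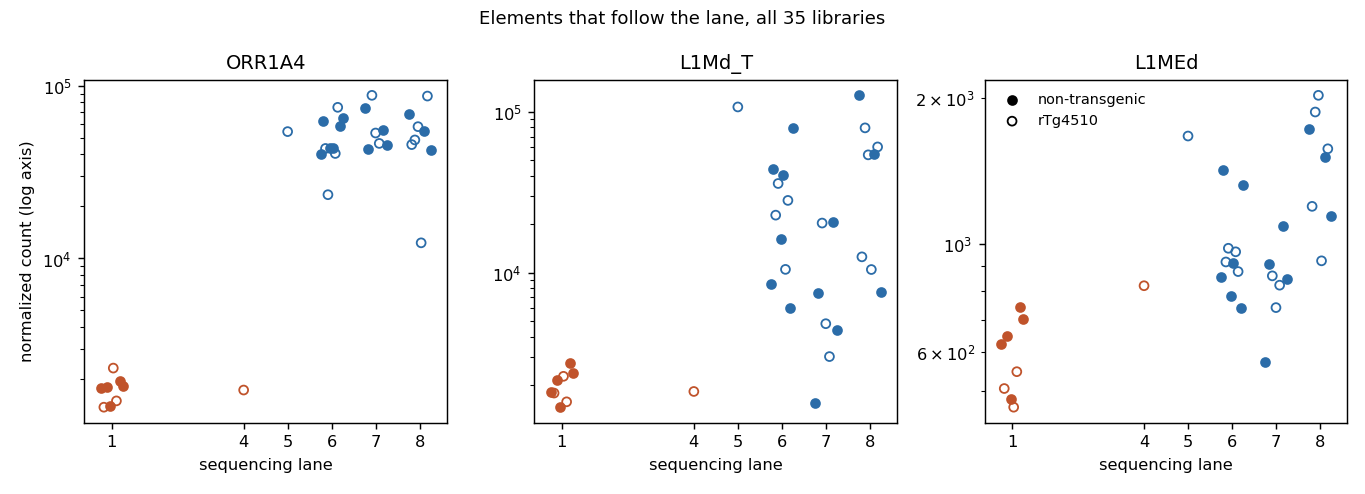
Normalized counts (log axis) of ORR1A4, L1Md_T and L1MEd in all 35 libraries by sequencing lane, with lanes 1 and 4 in orange, lanes 5 to 8 in blue, non-transgenic libraries filled and rTg4510 libraries open. ORR1A4 separates the lane sets without overlap in both genotypes, L1Md_T overlaps at the low end of lane 7, and L1MEd at the low ends of lanes 6 and 7.

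Of these elements, ORR1A4, L1Md_T, L1MEd and L1_Mur2 also followed the lane in libraries outside this comparison. Over all 35 libraries ORR1A4 had 1377 to 2319 normalized counts in the 9 libraries of lanes 1 and 4, or 0.185% to 0.352% of the counts, and 12317 to 87983 in the 26 of lanes 5 to 8, or 2.06% to 12.8%. L1Md_T had 1455 to 2758 and 1549 to 126464, where the low value belongs to the 6-month library Sample_183 of lane 7. In the 11 rTg4510 libraries of 3 and 9 months, which entered none of the preceding tests, the lane term on the TMM scale was -4.82 for ORR1A4, -4.26 for L1Md_T, -1.26 for L1MEd and -0.37 for L1_Mur2 (limma adjusted p = 4.43e-06, 0.000154, 0.000806 and 0.01004). L1MC5 at -0.10 and L1M5 at -0.15 did not pass there (adjusted p = 0.516 and 0.256). In those libraries 7 elements were called lower (0.795%) and 3 higher (0.341%), and 4 of them are among the 6 called in the non-transgenic libraries. ETnERV2-int, at -1.87 (limma adjusted p = 0.000154), was called lower there but not in the non-transgenic libraries. On the deposited scale 416 elements of those libraries were called higher in lanes 1 and 4 (47.3%) and 5 lower (0.568%), and the median lane term was 0.39, against 0.10 in the non-transgenic libraries. In a deposited-scale fit of all 35 libraries 298 were called higher and 5 lower, against 0 and 3 in the 12 non-transgenic libraries.

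The change with age differed from that in rTg4510 mice on the deposited scale, with genotype taken from the titles. For most of the rTg4510 libraries of 3 and 9 months the genotype entry in the characteristics reads non-transgenic. The rTg4510 change from 3 to 9 months (6 and 5 libraries) had a median log2 fold change of -0.14 over the same 880 elements, against 0.33 in the non-transgenic animals. Limma called the difference for 131 elements, all lower in rTg4510 (14.9%), and for 259 with lane set as a term. LTR37B changed by -0.37 in rTg4510 and by 0.87 in non-transgenic mice, a difference of -1.23 (SE 0.27, adjusted p = 0.0121), and MER77B by -0.42 and 0.77, a difference of -1.18 (adjusted p = 0.0196). Both were named for their rise in these non-transgenic libraries, which favours a lower change in rTg4510. The median difference over all 880 elements was -0.47. MERVL-int changed by 0.11 and 0.39, and that difference did not pass (adjusted p = 0.216). On the TMM scale 1 element was called (0.114%), B3, which changed by -0.18 in rTg4510 and 0.03 in non-transgenic mice (difference -0.21, SE 0.043, limma adjusted p = 0.0352).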

How the data were processed

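Per the labels, total RNA depleted of ribosomal RNA was sequenced. The authors deposited 1 table of normalized counts per repeat subfamily, a signal in which read counts are divided by 1 factor per library. The submitters' processing notes list Trimmomatic, STAR, DESeq2 and the mm10 build, and the repeat counting program is not given in the sources used here. Reads of related subfamilies may be shared between rows. Whole reads were recovered from the smallest step of each column, and 100% of values in the 12 libraries came out within 0.01 of a whole number.

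Libraries were grouped by title. Rows that reached 10 in 5 or more of the 12 libraries entered limma 3.58.1 with an intensity trend (R 4.3.3) on log2(value + 1), two-sided, with Benjamini-Hochberg adjustment over 880 elements and a threshold of 0.05. Adjusted p-values without another tool named are from limma. Fold changes on this scale understate changes of low elements. TMM factors came from edgeR 4.0.16 over the recovered reads. Lane set was added as a term. Typical levels, shares and ratios were compared with exact permutation tests (scipy 1.17.1), and 12 shares and ratios were adjusted together. EdgeR and DESeq2 1.42.0 on recovered reads, other pseudocounts, other filters, lane subsets, array weights, the genotype characteristic and leaving out each library were alternatives. The fits were tested on simulated counts with known changes. The simulation held no shift shared by all elements of a library and no lane effect, so it does not cover these. The median tested element had 115 reads per library, which limits low elements.

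Named elements are, on each scale, called elements with a mean of at least 50 and the 10 largest changes each way, filled up to 6 by smallest p where fewer passed. Added to these were up to 2 members by smallest p in families or lists with 3 or more called, the 8 largest lane changes each way, and a preset few. Elements named only to complete a small family or count were named after their values were seen. The comparison, the elements and the lists were chosen with earlier results of these data known. The rTg4510 lane fit was added after seeing the data.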

Additional observations from a re-analysis of the deposited data

Results flagged for a closer look

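Within sets of 6 libraries of the same age, 130 sets of values were examined and 12 had a highest or lowest library far from the nearest other by Dixon's criterion. Chance alone flags about 1 in 20 such sets, and the sets share libraries. At 3 months Sample_167, the only library of lane 1, was low for ORR1A4, with 1789 normalized counts or a share of 0.241%, the next library having 40298 and 5.95%. Sample_173 was high for L1MEd (1422 normalized counts) and for L1M5 (2900.1), Sample_172 was high for LTR37B (42.2), and Sample_180 was high for the share of DNA transposons without ORR1A4 and L1Md_T (6.95%). At 9 months Sample_202 was high for L1Md_T, with 54967 normalized counts or 6.25%, and for the LINE share, at 23.8%. The other library of lane 8, Sample_204, had 7528 counts of L1Md_T. Sample_207 was high for RLTR45-int (247 normalized counts) and for the log2 ratio of B3 to B3A (1.46), and Sample_213 was high for RLTR26_Mus (195.3). Values without the flagged library are given for RLTR45-int and the ratio of B3 to B3A, and the shares have ranges for leaving out single libraries. For LTR37B, L1MEd, L1M5, RLTR26_Mus and the counts of ORR1A4 and L1Md_T no such value is given. Without Sample_213 limma called 0 elements by age on the deposited scale, so RLTR26_Mus was not called there.

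On the deposited scale the change from 3 to 9 months differed between mice titled rTg4510 and non-transgenic for 12 of the 52 named elements. Each had a lower change in rTg4510 and a limma adjusted p between 0.0121 and 0.0480. Over all 880 elements 131 were called (14.9%), and no lane held both ages in the rTg4510 libraries. Many named elements were picked for their rise in these non-transgenic libraries, which favours a lower change in rTg4510. The differences (log2, rTg4510 minus non-transgenic) were -1.54 for Charlie19a, -1.53 for L1ME3G, -1.23 for LTR37B, -1.189 for IAPEY4_I-int, -1.18 for MER77B and -1.13 for MER74B. They were -0.88 for RLTR12A, -0.87 for RLTR11D, -0.72 for L1VL1, -0.68 for B3, -0.68 for L1_Mur2 and -0.59 for B3A. The median difference over all 880 elements was -0.47. On the TMM scale, where that median was -0.02, the difference passed for B3 alone among the named elements (-0.21, limma adjusted p = 0.0352).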

How the results depend on the processing

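Calls by age on the deposited scale, 246 in all, became 379 in a fit of all 35 libraries, 74 of 1124 without a filter on low values, 396 with DESeq2 and 641 with array weights. They became 150 within lanes 5 to 8, 0 within lane 1, where a single 3-month library leaves little to test (5 at an unadjusted p under 0.05), and 0 with lane set as a term (233 unadjusted), and the cause was not tested. Other pseudocounts, a filter at 50, edgeR, agreeing labels and the genotype characteristic as a term stayed within 1.5 times. Leaving out each library in turn gave 0 to 456 calls, and 0 to 1 on the TMM scale. DESeq2 with its own factor per library in place of TMM called 1, MLT1-int. Calls by lane set were 2 to 3 on the deposited scale and 2 to 12 on the TMM scale when single libraries were left out. With all 35 libraries they were 303 (298 higher) and 104, and in rTg4510 421 (416 higher) and 10. The difference between genotypes gave 131 calls, and 259 with lane set, although no lane held both ages in the rTg4510 libraries.

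The typical level differed by 0.33, by 0.39 within lanes 5 to 8, by 0.10 within lane 1 and by 0.42 with agreeing labels, and by 0.27 to 0.38 without single libraries. Differences in shares, in percentage points, changed within lanes 5 to 8 to 0.83 for SINEs (2.75 over all 12), 0.67 for LINEs, 0.077 for LINEs and -0.094 for LTR elements without ORR1A4 and L1Md_T, -0.057 for DNA transposons, -1.41 for LTR elements, -1.66 for ORR1A4, 0.33 for L1Md_T and -0.0011 for 7SK. The log2 ratio of B3 to B3A changed to -0.0086. Within lane 1 they were 0.44 for LTR elements, -0.14 for SINEs and -0.020 for ORR1A4. With agreeing labels, where the ages share no lane, they were -3.08 for LTR elements, -4.98 for ORR1A4, -1.52 for LINEs, 4.12 for SINEs and -2.62 for L1Md_T. Without single libraries they ran from 2.34 to 3.60 for SINEs, -1.31 to -0.094 for LINEs, -3.14 to -1.85 for LTR elements, 0.086 to 0.27 for DNA transposons, -5.26 to -3.46 for ORR1A4, -2.35 to -0.72 for L1Md_T and -0.00080 to 0.0011 for 7SK. Without ORR1A4 and L1Md_T they ran from 0.059 to 0.32 for SINEs, -0.46 to -0.20 for LINEs, 0.18 to 0.45 for LTR elements and -0.23 to -0.10 for DNA transposons. The ratio of B3 to B3A ran from -0.026 to 0.028.

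Among named elements the deposited log2 change turned positive within lanes 5 to 8 for L1Md_T (0.25), MMSAT4 (0.093), MADE2 (0.087), LTR82A (0.091) and UCON2 (0.13). With lane set as a term it turned positive for L1Md_T (0.24) and UCON2 (0.019), within lane 1 for L1Md_T (0.23) and with agreeing labels for MADE2 (0.036). Within lane 1 it turned negative for MER74B (-0.039) and 7SK (-0.22), and on the TMM scale for IAPLTR2a (-0.060). No paired analysis was possible because the ages share no replicate numbers. Depth limits elements with low counts such as Charlie19a, and the lanes limit every comparison of ages on the deposited scale.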
